A study of Mus musculus with 28 samples.

Results

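The genes followed were 8 regulators of early oocytes, Sohlh1, Sohlh2, Figla, Lhx8, Nobox, Taf4b, Dazl and Ddx4, taken as a list by symbol. All 8 were found among the 44674 genes of the bulk table and among the 31053 genes of the single-cell tables, and all 8 passed the filter on low counts that left 26790 bulk genes to be tested. Ovaries of C57BL/6J wild-type (WT) females and of Chek2-/- females, which carry the Chek2tm1b(EUCOMM)Hmgu knockout allele, were compared 6 h after sham treatment (nonIR) or a single total-body dose of 0.5 Gy from a cesium source (IR). Bulk poly(A) RNA was sequenced from 6 ovary samples in each of the 4 groups (24 libraries, females 7 to 9 days old), and dissociated cells were sequenced in 4 single-cell libraries, 1 per group, each pooled from 4 females 7 days old. The knockout is in the whole animal, and a pool of females gives no spread between animals, so no test between single-cell libraries was possible. Chek2 itself was measured at 22.4 ± 1.66 CPM (counts scaled to library size; SD, n = 6) in WT nonIR and 3.75 ± 0.545 in Chek2-/- nonIR ovaries (log2 fold change −2.58, adjusted p = 7.46e-15, edgeR quasi-likelihood test).

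Mouse ovaries in the second week of life hold mostly primordial follicles, each a resting oocyte in a layer of flat pregranulosa cells, and a first wave of growing follicles. SOHLH1 and SOHLH2 are germ-cell basic helix-loop-helix (bHLH) proteins needed for oocytes to enter growth, FIGLA is the bHLH protein needed to form primordial follicles, and LHX8 and NOBOX are homeobox proteins of early oocytes. Loss of any of these factors is known to deplete oocytes. TAF4B is a gonad-enriched subunit of TFIID, the complex that sets RNA polymerase II on promoters. DAZL and DDX4 are RNA-binding proteins of the germ line, the former a translational regulator and the latter a DEAD-box helicase widely used as a germ-cell marker.

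bHLH proteins bind the E-box, CANNTG, and NOBOX binds sites with a TAAT core, so the 250 bases before each gene start were read from RefSeq (GRCm38.p6). A promoter was found for 7 of the 8 genes, and Taf4b had none in the table. Those of the 3 genes that fell after irradiation in WT bulk ovaries (below), and that of Ddx4, which did not pass the test, are given 5′ to 3′ on the strand of the gene with every E-box in capitals. Sohlh1 lies on the minus strand at chr2:25847249-25847498, Nobox on the minus strand at chr6:43309555-43309804, Lhx8 on the minus strand at chr3:154330561-154330810 and Ddx4 on the minus strand at chr13:112652311-112652560.
Sohlh1: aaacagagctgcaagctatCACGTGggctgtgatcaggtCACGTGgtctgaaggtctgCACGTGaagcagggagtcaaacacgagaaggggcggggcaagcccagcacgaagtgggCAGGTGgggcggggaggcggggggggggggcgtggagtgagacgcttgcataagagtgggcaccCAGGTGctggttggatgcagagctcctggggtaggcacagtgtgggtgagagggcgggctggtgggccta
Nobox: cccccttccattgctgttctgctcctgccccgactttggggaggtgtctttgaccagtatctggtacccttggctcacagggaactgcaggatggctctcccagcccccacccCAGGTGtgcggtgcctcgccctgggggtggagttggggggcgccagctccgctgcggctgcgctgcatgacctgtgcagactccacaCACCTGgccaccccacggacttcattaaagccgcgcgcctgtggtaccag
Lhx8: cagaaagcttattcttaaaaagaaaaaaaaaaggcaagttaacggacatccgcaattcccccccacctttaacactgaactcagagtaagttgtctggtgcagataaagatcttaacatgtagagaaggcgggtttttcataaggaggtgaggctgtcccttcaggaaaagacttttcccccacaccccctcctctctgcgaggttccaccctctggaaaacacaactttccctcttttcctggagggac
Ddx4: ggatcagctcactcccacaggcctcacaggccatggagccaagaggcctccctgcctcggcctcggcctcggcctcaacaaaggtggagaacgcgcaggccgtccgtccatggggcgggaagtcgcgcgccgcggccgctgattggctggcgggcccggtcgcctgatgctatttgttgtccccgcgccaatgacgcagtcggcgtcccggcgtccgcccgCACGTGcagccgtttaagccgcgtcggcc

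The Sohlh1 promoter held 5 E-boxes, which began 231, 211, 192, 134 and 70 bases before the gene start, and the first 3 were CACGTG. At least 5 E-boxes were found in 1.18% of 27025 RefSeq promoters of this length, and at least 3 copies of CACGTG in 0.0666% of them (18 promoters). Nobox held 2 E-boxes, 137 and 50 bases before its start, and Figla held 2, 173 and 164 bases before its start. Sohlh2, Dazl and Ddx4 held 1 each, that of Ddx4 being CACGTG 29 bases before the start. Of the same 27025 promoters, which leave out chromosome 18, 66.0% held at least 1 E-box, 31.7% at least 2 and 6.05% at least 1 CACGTG. Lhx8 held 0 E-boxes. The NOBOX-type sequences TAATTA and TAATTG, searched on both strands, were absent from all 7 windows and present in 11.5% of those promoters. Because CANNTG is palindromic, each E-box is counted once for both strands, and CACGTG is counted among the E-boxes. A match is a description of letters, and binding was not measured. Gene starts here are those of RefSeq. By GENCODE vM21, used below for exon lengths, Figla starts at chr6:86016171, so its window at chr6:86016941-86017190 lies within that gene. The windows of Ddx4, Lhx8, Sohlh2 and Dazl overlap their GENCODE genes in part, and the CACGTG of Ddx4 lies in the overlap.

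Level per length was compared first, in non-irradiated WT ovaries, as CPM divided by the kilobases of exon of each gene (GENCODE vM21). By this measure Nobox was the most abundant of the 8 at 87.5 ± 3.81 CPM per kilobase (SD, n = 6), and the single-cell counts below had another order. Sohlh1 followed at 42.8 ± 4.34 and Figla at 33.6 ± 2.82, and each of these ranges stood clear of the next. Lhx8 (20.8 ± 1.54) and Ddx4 (20.5 ± 1.64) overlapped. Dazl (10.6 ± 2.27) overlapped Taf4b (9.76 ± 1.18), and Taf4b overlapped Sohlh2, the least abundant at 7.14 ± 1.31 CPM per kilobase.

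In WT ovaries, Sohlh1, Nobox and Lhx8 fell 6 h after irradiation, and in Chek2-/- ovaries none of the 8 genes passed the test. The 3 genes were 3 of the 8 past an adjusted p of 0.05, all lower, where 2.41% of the 26790 genes passed the same test (646 genes) and 0.885% passed it in the lower direction (237 genes). Fold changes of all 8 were below 0 in WT, with a median of −0.40 on the log2 scale beside −0.00409 over all genes tested. In a bulk sample, fewer cells of a type and less RNA per cell cannot be told apart.

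On the log2 scale Sohlh1 showed the largest difference of the 8. Its CPM in WT nonIR libraries ran from 49.1 to 62.2 with a median of 54.4. In WT IR libraries it ran from 26.1 to 44.6 with a median of 29.2. All 6 irradiated libraries lay below the lowest non-irradiated one, and the mean fell from 55.2 ± 5.60 to 32.1 ± 7.30 CPM (SD, n = 6 each; log2 fold change −0.78, SE 0.13, adjusted p = 0.000529, edgeR quasi-likelihood test). In Chek2-/- libraries Sohlh1 ran from 40.0 to 71.5 CPM (median 62.5) without irradiation and from 53.7 to 75.7 (median 64.7) with it, and these ranges overlapped (log2 fold change 0.10, adjusted p = 1). The difference between the genotypes in the effect of irradiation was itself past the threshold for Sohlh1, at 0.88 on the log2 scale (SE 0.19, adjusted p = 0.0131). It was the only 1 of the 8 for which that was so in this fit, where 1.03% of all genes passed this interaction test and 0.340% passed it with a positive sign.

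Sohlh2, the partner of Sohlh1, ran from 12.5 to 21.0 CPM (median 16.8) in WT nonIR and from 9.85 to 20.7 (median 12.1) in WT IR libraries. Of the 6 irradiated libraries, 4 lay below the lowest non-irradiated one, and 1 irradiated library, at 20.7 CPM, stood apart from the other 5, which reached 13.2. The log2 fold change was −0.36 (SE 0.17, adjusted p = 0.405). Figla ran from 25.5 to 31.1 CPM (median 28.0) and from 19.8 to 26.7 (median 21.8), again with 4 of 6 irradiated libraries below the whole non-irradiated range. Its log2 fold change of −0.31 (SE 0.11) did not pass the test (adjusted p = 0.195).

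Nobox ran from 168 to 189 CPM (median 175) in WT nonIR libraries and from 107 to 146 (median 125) in WT IR libraries. The groups did not overlap, and the mean fell from 176 ± 7.66 to 125 ± 12.4 CPM (log2 fold change −0.50, SE 0.11, adjusted p = 0.00699). Lhx8 ran from 45.7 to 56.9 CPM (median 54.0) and from 33.7 to 43.2 (median 38.2), again without overlap, and the mean fell from 52.8 ± 3.91 to 38.3 ± 3.09 (log2 fold change −0.46, SE 0.12, adjusted p = 0.027). Over all genes tested, 0.885% had every WT IR library below every WT nonIR library (237 genes, a separate count from the genes past the test), against the 3 genes Sohlh1, Nobox and Lhx8 among the 8. In Chek2-/- ovaries Nobox averaged 170 ± 32.1 CPM without and 175 ± 21.8 CPM with irradiation, and Lhx8 averaged 54.1 ± 11.3 and 55.7 ± 7.75 CPM. The interaction did not pass for either gene (Nobox 0.54, adjusted p = 0.097; Lhx8 0.51, adjusted p = 0.197). Of the 3 calls in WT, that of Lhx8 was the least secure: it was lost when any 1 of 9 of the 24 libraries was left out (WT nonIR replicates 1, 4, 5 and 6 and WT IR replicates 1, 2, 3, 5 and 6), with an adjusted p of up to 0.0799. Over 32 alternative settings the interaction passed in 6 for Nobox and in 2 for Lhx8. For Nobox these included the edgeR fits without replicate 6 of Chek2-/- nonIR (adjusted p = 0.0437) or of Chek2-/- IR (adjusted p = 0.0361).

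**Figure D1:**
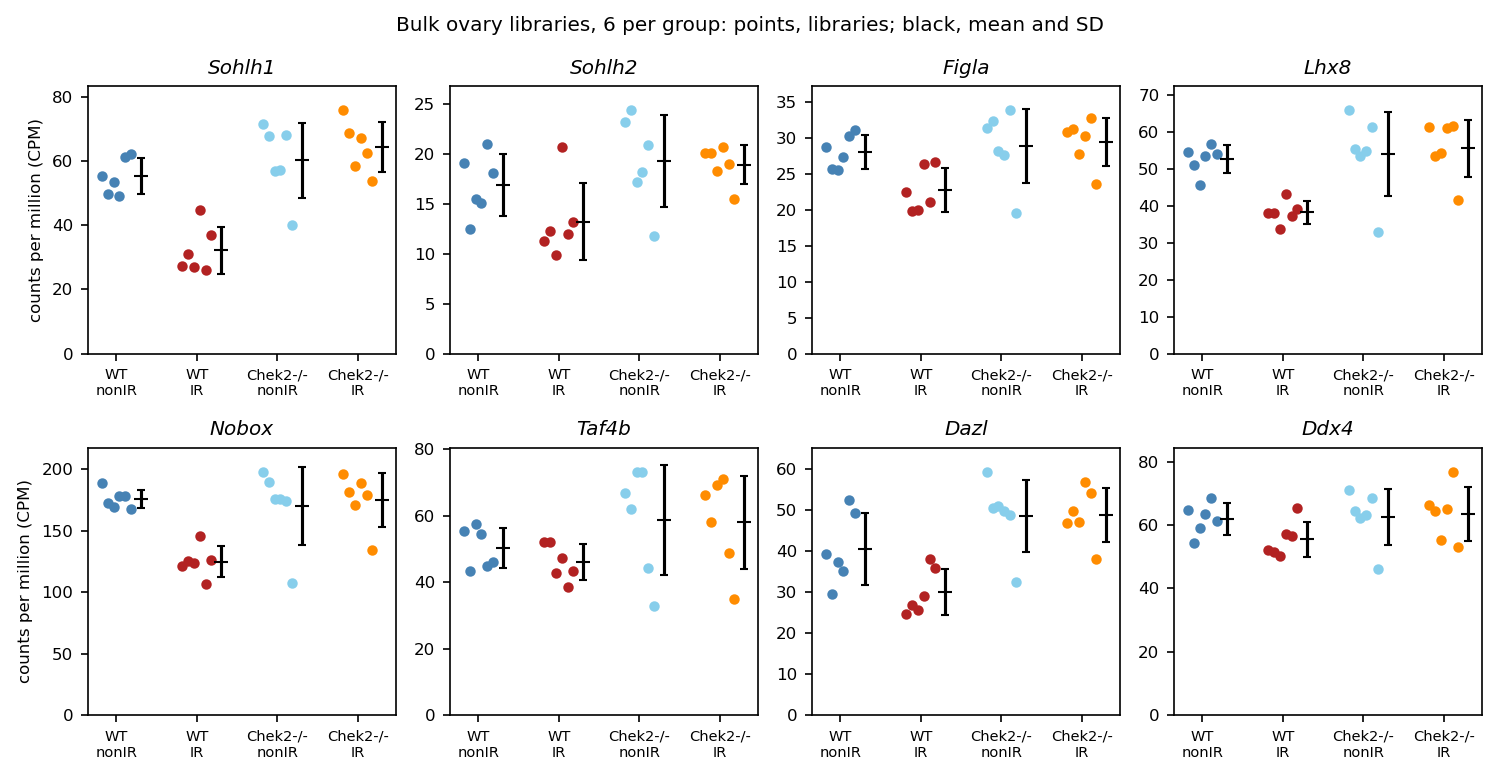
CPM of each gene in the 24 bulk ovary libraries (vertical axes from 0; 6 libraries per group; points are libraries, black marks the mean and SD). For Sohlh1, Lhx8 and Nobox the 6 WT IR libraries lie below all 6 WT nonIR libraries, and 1 Chek2-/- nonIR library is low for Lhx8 (33.0 CPM), Nobox (108 CPM) and Ddx4 (46.0 CPM).

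Taf4b ran from 43.5 to 57.4 CPM (median 50.3) in WT nonIR and from 38.5 to 52.0 (median 45.3) in WT IR libraries. These ranges overlapped, with 3 of 6 irradiated libraries below the lowest non-irradiated one (log2 fold change −0.13, SE 0.17, adjusted p = 0.893). Dazl ran from 29.5 to 52.2 CPM (median 38.3) and from 24.5 to 37.9 (median 27.9). The log2 fold change of Dazl, −0.43 with an SE of 0.14, did not pass (adjusted p = 0.146); it was close in size to that of Lhx8 but with a wider spread between libraries. Ddx4 ran from 54.2 to 68.5 CPM (median 62.4) and from 50.2 to 65.3 (median 54.3), and its log2 fold change was −0.16 (adjusted p = 0.593, SE 0.09). An unadjusted p under 0.05 in WT was found for 6 of the 8 genes, Taf4b and Ddx4 being the exceptions, beside 11.4% of all genes.

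In Chek2-/- ovaries no response of the 8 genes to irradiation was detectable with these libraries. Their log2 fold changes lay between −0.03 for Sohlh2 and 0.10 for Sohlh1, with a median of 0.02 and an adjusted p of 1 for every gene. In that comparison 0 of the 8 passed by edgeR, by DESeq2 or by limma-voom, where 0.0112% of all genes (3 genes) passed by edgeR, and 0 had an unadjusted p under 0.05, as 4.40% of all genes did. SEs of these fold changes ranged from 0.09 (Ddx4) to 0.17 (Taf4b). A fold change has to exceed its SE several times to pass this test, so changes larger than these SEs could also go unseen. Genotype alone gave no call by these tools either. In non-irradiated ovaries the Chek2-/- minus WT log2 fold changes lay between −0.05 (Nobox) and 0.26 (Dazl, adjusted p = 0.299), and 0 of the 8 passed by edgeR, DESeq2 or limma-voom, beside 5.34% of all genes by edgeR. None had an unadjusted p under 0.05, beside 21.6% of all genes. For 8 genes, a count of 0 past the adjusted threshold is close to the 5.34% share. Taf4b and Dazl each passed in 1 of the 32 alternative settings described at the end.

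**Figure D2:**
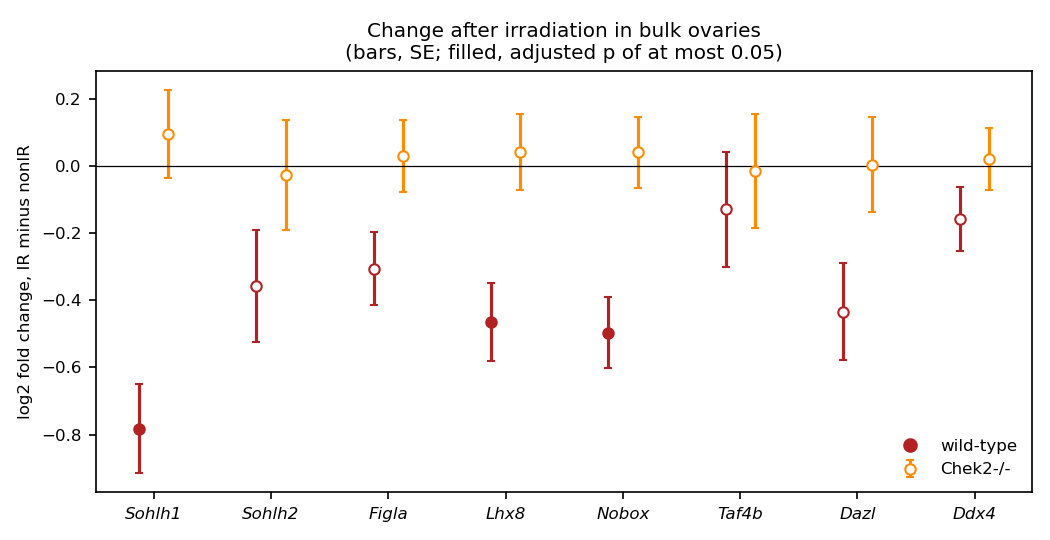
Log2 fold change of each gene, irradiated minus non-irradiated, in WT and Chek2-/- bulk ovaries (points; bars are SE from the edgeR fit; filled points passed an adjusted p of 0.05). All 8 WT points lie below 0, from −0.78 for Sohlh1 to −0.13 for Taf4b, and the Chek2-/- points lie between −0.03 and 0.10.

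The oocyte RNA of the libraries was followed with 14 other oocyte genes, among them Dppa3, Sycp3, Gdf9 and Npm2, none of which is one of the 8. Gdf9, Bmp15, Zp2, Padi6, Nlrp5, Ooep and Npm2 of this list serve below as markers of growing oocytes. Sycp3 and Smc1b serve as markers of primordial-type oocytes. A mean over the list therefore does not follow primordial oocytes alone. The mean log2 CPM of the 14 genes was 8.13 ± 0.119 in WT nonIR and 8.02 ± 0.0811 in WT IR libraries, a difference of −0.105 (exact permutation test, two-sided, p = 0.0952, n = 6 against 6). In Chek2-/- ovaries it was 7.83 ± 0.481 and 7.85 ± 0.406 (exact permutation p = 0.803). None of the 14 passed the edgeR test in WT after irradiation, 3 had an unadjusted p under 0.05, and their median log2 fold change was −0.06 with a range of −0.59 to 0.13. With this mean as a covariate, the WT fold changes of Sohlh1 (−0.74), Nobox (−0.44) and Lhx8 (−0.40) stayed past the threshold. How far oocyte number bears on the lower levels in WT was not tested.

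In each Chek2-/- group the library numbered 6 stood apart, with a reference mean of 6.86 without and 7.03 with irradiation. Sohlh1 was lowest of its group in both, at 40.0 and 53.7 CPM, and so were Nobox, Lhx8, Figla, Sohlh2, Dazl, Ddx4 and Taf4b. Leaving out both, a choice made after seeing the data, moved the number of the 8 genes past the threshold in WT from 3 to 5, since Figla (log2 fold change −0.30, adjusted p = 0.029) and Dazl (−0.43, adjusted p = 0.0498) were added. It moved the interaction from 1 to 3 genes, adding Nobox (0.50, adjusted p = 0.00125) and Lhx8 (0.46, adjusted p = 0.00946). The count over all genes moved as well, from 646 to 1009 in WT and from 277 to 347 for the interaction.

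Across the 24 libraries the 8 genes followed the reference mean weakly. Pearson's r ran from 0.0972 for Sohlh1 (permutation p = 0.71) to 0.55 for Taf4b (permutation p = 0.0022, adjusted over the 8 relations 0.017) and 0.548 for Ddx4 (permutation p = 0.0044, adjusted 0.018). Spearman's rho ran from −0.0296 for Sohlh1 (permutation p = 0.89) to 0.364 for Ddx4 (permutation p = 0.081), and no rho passed after adjustment (lowest 0.53). Without the 2 libraries farthest from the median, both Chek2-/- libraries numbered 6, r ran from −0.00124 for Taf4b to 0.246 for Ddx4, so the relation pooled over groups rested on those libraries. After the group means were subtracted, with both libraries numbered 6 kept, r was between 0.554 for Sohlh1 and 0.867 for Lhx8. That r was not computed without them. Within the groups of 6 libraries the genes differed. In WT nonIR libraries r ran from 0.0126 for Sohlh1 to 0.74 for Lhx8 and 0.927 for Nobox, and in WT IR libraries from −0.425 for Nobox to 0.725 for Dazl and 0.768 for Ddx4, with Sohlh1 at 0.0034. In both Chek2-/- groups, each with its low library numbered 6, r was at least 0.66 for every gene.

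Pairs of the 8 genes were compared with each other next. Over the 28 pairs, r across the 24 libraries ran from 0.449 to 0.946 with a median of 0.813, and the lowest was between Taf4b and Ddx4. Taf4b had the lowest r with each of the other genes. These are correlations over libraries that share oocyte content and group, given as a description. Among 15956 genes with a mean of at least 1 CPM, those most like Sohlh1 were Musk (r = 0.97), Taf5 (0.97) and Kctd7 (0.96). Taf5 encodes a core TFIID subunit. Sohlh2 was most like Mael (0.95), which encodes a germ-line piRNA factor, then Mrnip (0.94) and Syce1 (0.94). Lhx8 was most like Olfr976 (0.97), Gdpd1 (0.96) and Rims3 (0.96), and Nobox like Ndrg4 (0.95), Lhx8 (0.95) and Rims3 (0.93). For Figla these were Snap91 (0.96), Gdpd1 (0.95) and Dppa3 (0.94). Dazl was most like Ect2 (0.95), Elavl2 (0.95) and the synaptonemal complex gene Sycp3 (0.95), and Ddx4 like Kdm1b (0.94), Dppa3 (0.93) and Lsm6 (0.91). Taf4b was closest to Ctsl (0.93), Mt3 (0.92) and Map3k5 (0.91).

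Related genes were counted in the same fit, in which 2.41% of all genes passed in WT after irradiation (0.885% of all genes lower) and 1.03% passed the interaction. Of 18 TFIID subunits and TBP paralogs, 1 fell and 0 rose in WT after irradiation. The one that fell was Taf5, from a mean of 53.8 to 40.1 CPM (log2 fold change −0.43, SE 0.08, adjusted p = 0.00246), and its interaction also passed (0.49, adjusted p = 0.0301), a call that was lost when any 1 of 13 libraries was left out (adjusted p of up to 0.0767). The median log2 fold change of the 18 was −0.03. Of 21 germ-cell RNA regulators, the companions of DAZL and DDX4, Piwil2, which encodes a PIWI protein, fell (−0.47, adjusted p = 0.0238; up to 0.0887 with 1 library left out, lost in 6 of 24 cases), 0 rose, and the median was −0.10. Of 13 LIM-homeobox genes and cofactors, relatives of LHX8, 2 rose and 0 fell. Lhx3 had 0 counts in all 6 WT nonIR libraries and ran from 0.889 to 2.58 CPM (median 1.63, mean 1.64) in WT IR libraries (edgeR, adjusted p = 4.37e-08). That mean was at least 81.8-fold higher than 3 counts shared by the 6 WT nonIR libraries would be (0.0201 CPM). Lhx5 rose from a mean of 0.15 to 0.387 CPM (log2 fold change 1.32, adjusted p = 0.0429), and leaving out any 1 of 11 libraries lost that call (adjusted p of up to 0.111). Of 7 bHLH partners and inhibitors, such as Tcf3 and Id1, 0 passed in WT by edgeR, DESeq2 or limma-voom and 2 had an unadjusted p under 0.05. Of 11 growing-oocyte genes linked to FIGLA, NOBOX or SOHLH1, among them Zp1, Zp2, Zp3, Gdf9 and Pou5f1, 0 passed in WT by any of the 3 tools, 0 had an unadjusted p under 0.05, and the median log2 fold change was −0.06.

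In Chek2-/- ovaries after irradiation, 0 genes of these 5 lists passed by edgeR, DESeq2 or limma-voom, and 0 had an unadjusted p under 0.05. Without irradiation, 5 of the 70 genes on these lists passed between Chek2-/- and WT (7.14%), a share near the 5.34% of all genes. They were the zona pellucida gene Zp1 (lower in Chek2-/-, −0.46, adjusted p = 0.0236), the bHLH inhibitor Id3 (lower, −0.39, adjusted p = 0.0456), Boll, a DAZL relative at a mean of 0.394 against 0.144 CPM (higher, 1.40, adjusted p = 0.031), Taf2 (higher, 0.14, adjusted p = 0.0296) and Taf13 (higher, 0.23, adjusted p = 0.0207). Each call was lost without some single library, in 3 of 24 cases for Zp1 and Taf13, 7 for Taf2 and Boll and 15 for Id3, and without the Chek2-/- nonIR library numbered 6 the adjusted p was 0.0571 for Taf2 and 0.0911 for Id3. Fold changes were below 0 for 10 of the 11 growing-oocyte genes in that comparison, with a median of −0.46, while the 8 regulators had a median of 0.08. The 14 reference genes, 4 of which are on the growing-oocyte list too, had a median of −0.35. Without the Chek2-/- nonIR library numbered 6 these medians were −0.32 for the growing-oocyte genes, again with 10 of 11 below 0, −0.21 for the reference genes and 0.18 for the 8 regulators.

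In single cells, 36524 cells passed the filters, and 582 of them formed 1 oocyte-like cluster in which all 8 fixed oocyte markers passed (196 WT nonIR, 171 WT IR, 75 Chek2-/- nonIR and 140 Chek2-/- IR cells). The 8 genes were kept out of the genes used for clustering and naming. Oocyte-like cells were 1.59% of cells and held 9.97% of all unique molecular identifiers (UMIs), yet they held 96.7% of the Figla UMIs (39767 of 41143). The same share was 97.1% for Sohlh2, 96.4% for Lhx8, 95.1% for Nobox, 96.0% for Dazl, 93.4% for Ddx4 and 90.8% for Sohlh1. Taf4b was the exception at 43.5%, 62.6% in the WT nonIR library and between 33.4% and 39.8% in the other 3. The exact binomial 95% limits of the Taf4b share were 42.2% to 44.8%, and such limits cover counting error only. In the WT nonIR library Figla had the most UMIs of the 8 genes (15186), followed by Dazl (11320), Nobox (11090) and Sohlh1 (10351). Taf4b had the fewest (1653). That order is not the one of the bulk levels per kilobase.

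Outside oocytes the levels were low, and they were given as UMIs per 10000 UMIs of the class. Figla was at 0.0198 (exact Poisson 95% limits 0.0182 to 0.0214) in granulosa-like cells and 0.0224 (0.0206 to 0.0243) in fibroblast-like cells, against 5.52 in oocyte-like cells. Sohlh1 was at 0.0592 (0.0565 to 0.062) in granulosa-like cells and 0.0206 (0.0189 to 0.0224) in fibroblast-like cells. The granulosa-like over fibroblast-like ratio of Sohlh1 was 1.92, 5.54, 3.52 and 2.86 in the WT nonIR, WT IR, Chek2-/- nonIR and Chek2-/- IR libraries, while that of Figla was 0.894, 0.96, 1.05 and 0.76 in the same order. Taf4b was also higher in granulosa-like cells in every library, with ratios between 2.01 and 2.39. Nobox had the reverse order, with ratios between 0.36 and 0.601. The part of free RNA in these levels was not tested.

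**Figure D3:**
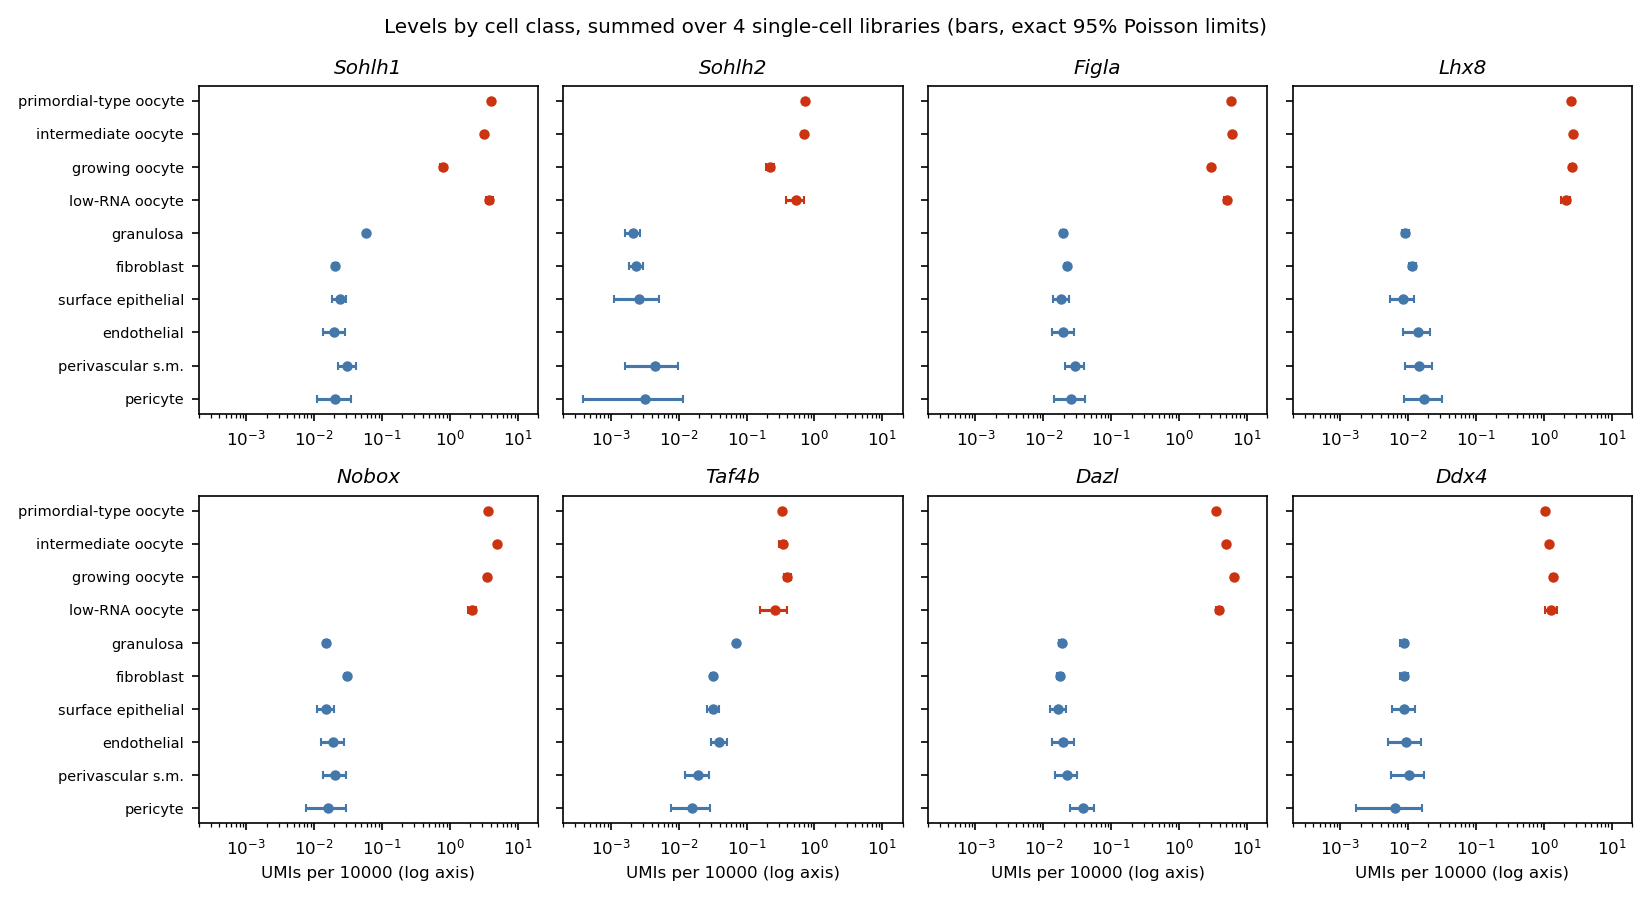
Level of each gene in UMIs per 10000 (log axis) by cell class, summed over the 4 single-cell libraries (red, oocyte-like classes; blue, somatic classes; bars, exact 95% Poisson limits). Oocyte-like classes lie far to the right for 7 genes, the gap is smallest for Taf4b, and Sohlh2 had 0 UMIs in endothelial-like cells, so that point is not drawn.

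The oocyte-like cells were clustered again, and 4 classes were set by primordial-type markers (Sycp1, Sycp2, Sycp3, Smc1b and Stag3) and growing-oocyte markers (Gdf9, Bmp15, Zp1, Zp2, Padi6, Nlrp5, Ooep and Npm2). There were 378 primordial-type cells, 38 intermediate cells, 67 growing-type cells and 99 low-RNA cells. Low-RNA cells were uneven between libraries, at 12 WT nonIR, 47 WT IR, 6 Chek2-/- nonIR and 34 Chek2-/- IR cells. Of them, 46 (39 WT IR) formed a cluster led by stromal genes such as Col1a1, Dcn and Pdgfra. Dcn was at 7.75 UMIs per 10000 in that cluster and the oocyte gene Ooep at 22.2, so its oocyte-like name is uncertain. Primordial-type was the name of every cluster that met no rule of the other classes, and no primordial-type marker was required. Sycp2 went the other way, at 0.403 UMIs per 10000 in growing-type cells and 0.104 to 0.155 in primordial-type clusters. Stag3 was low in both (0.0708, and 0.118 to 0.153). The primordial-type class was not uniform. Of its cells, 213 came from 2 clusters with leading genes such as Igfbp2, Gatm and Gm37350, in which Foxl2, a granulosa gene, was at 0.878 and 1.55 UMIs per 10000. The other 165 cells came from clusters with Foxl2 at 0.104 and 0.183. None of the primordial-type markers was among the leading genes of any cluster of the class. All 6 granulosa markers (Inha, Inhbb, Amh, Amhr2, Foxl2 and Fst) had UMIs in the class in every library, and their summed level in it was 4.30 UMIs per 10000 in WT nonIR, 1.52 in WT IR, 2.02 in Chek2-/- nonIR and 3.02 in Chek2-/- IR cells. Levels were divided by all UMIs of the cells, granulosa UMIs included, so the main ratios to primordial-type cells below are also given without both clusters of high Foxl2, a choice made after seeing the data. That left 20 WT nonIR, 82 WT IR, 26 Chek2-/- nonIR and 37 Chek2-/- IR cells, with granulosa markers at 0.527, 0.906, 0.684 and 0.78 UMIs per 10000 in the same order. The 107 primordial-type cells of the WT IR library came mostly from a cluster in which 80 of 83 cells were of that library, whereas all but 3 cells of the other 3 libraries came from 3 other clusters. By the mean of its markers that cluster lay closer to growing-type cells. Its growing markers were above its primordial-type markers by 0.674 on the log2 scale, where the 3 other clusters were at −0.528 to −0.099. Gdf9, an oocyte growth factor, was at 7.25 UMIs per 10000 in it and at 2.27 to 3.84 in the others. Not all markers went that way. Bmp15 was at 0.068 in it, 0.045 to 0.0557 in the others and 3.89 in growing-type cells, and Sycp3, at 8.38, lay within the 7.51 to 11.8 of the others. Its leading genes included Cbr2, Fermt1 and Fermt3, which the paper reports as induced by irradiation in oocytes. Mdm2 was at 10.1 in it and 0.70 to 1.05 in the others. Irradiated and non-irradiated WT cells of the class thus differed in some stage markers and in radiation-response genes as well. Median UMIs per primordial-type cell were 30990 in the WT IR library and between 152990 and 192852 in the others, and no intermediate cell was from the WT IR library.

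With low-RNA cells left aside, Sohlh1 was highest in primordial-type cells and Dazl in growing-type cells. Sohlh2 and Figla were higher in primordial-type and intermediate than in growing-type cells. The low-RNA clusters were at 6.06 and 2.21 UMIs per 10000 for Sohlh1 and at 6.94 and 1.68 for Dazl. Over the 4 libraries Sohlh1 was at 4.03 UMIs per 10000 in primordial-type, 3.16 in intermediate and 0.789 in growing-type cells. In the WT nonIR library the growing-type over primordial-type ratio was 0.272 for Sohlh1 (exact 95% limits 0.24 to 0.307), 0.414 for Sohlh2 (0.327 to 0.519) and 0.489 for Figla (0.453 to 0.527). Figla was at 6.02 in the intermediate class and 5.84 in primordial-type cells, and Sohlh2 at 0.702 and 0.734 (limits 0.65 to 0.757 and 0.711 to 0.757), pooled over libraries of which WT IR had no intermediate cell. The ratio was 2.10 for Dazl (2.00 to 2.21), 1.46 for Ddx4 (1.31 to 1.62) and 1.41 for Taf4b (1.16 to 1.69). It was 1.11 for Lhx8 (1.02 to 1.19) and 1.07 for Nobox (0.999 to 1.14). Without the clusters of high Foxl2, Lhx8 turned to 0.761 (0.69 to 0.838) and Nobox to 0.828 (0.763 to 0.9), so no direction is drawn for either. On the same cells the ratio was 0.195 for Sohlh1, 0.316 for Sohlh2 and 0.403 for Figla, and it was 1.34 for Dazl (1.25 to 1.44), 1.20 for Ddx4 (1.03 to 1.38) and 1.26 for Taf4b (0.971 to 1.65).

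The 3 bHLH genes had ratios below 1, and Dazl and Ddx4 above 1, in all 4 libraries, although the limits for Ddx4 reached below 1 in Chek2-/- nonIR cells. These sides of 1 held without the clusters of high Foxl2, where Ddx4 was at 1.01 in both Chek2-/- libraries with limits on both sides of 1. For Sohlh1 the ratio was 0.192 in WT IR, 0.329 in Chek2-/- nonIR and 0.0754 in Chek2-/- IR cells, and for Dazl it was 2.07, 1.31 and 1.72. Taf4b, Lhx8 and Nobox lay on both sides of 1. The Chek2-/- libraries held only 4 and 9 growing-type cells, so that a few cells set these ratios. In WT, too, deep cells weighed most, since UMIs were summed. With the clustering resolution doubled, growing-type cells formed a cluster of 37 cells with a median of 258429 UMIs (17 WT nonIR, 9 WT IR). Another held 30 cells with a median of 6196 UMIs (20 WT nonIR, 8 WT IR). A Sohlh1 UMI was found in 93.4% of primordial-type cells (median 162802 UMIs per cell) and 58.2% of growing-type cells (median 29216), beside 2.81% of fibroblast-like cells (median 12024), which should lack it. After thinning to 5000 UMIs, which left out shallower cells (341 of 378 primordial-type, 57 of 67 growing-type and 18173 of 18654 fibroblast-like cells remained), these shares were 82.1%, 31.6% and 1.14%.

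**Figure D4:**
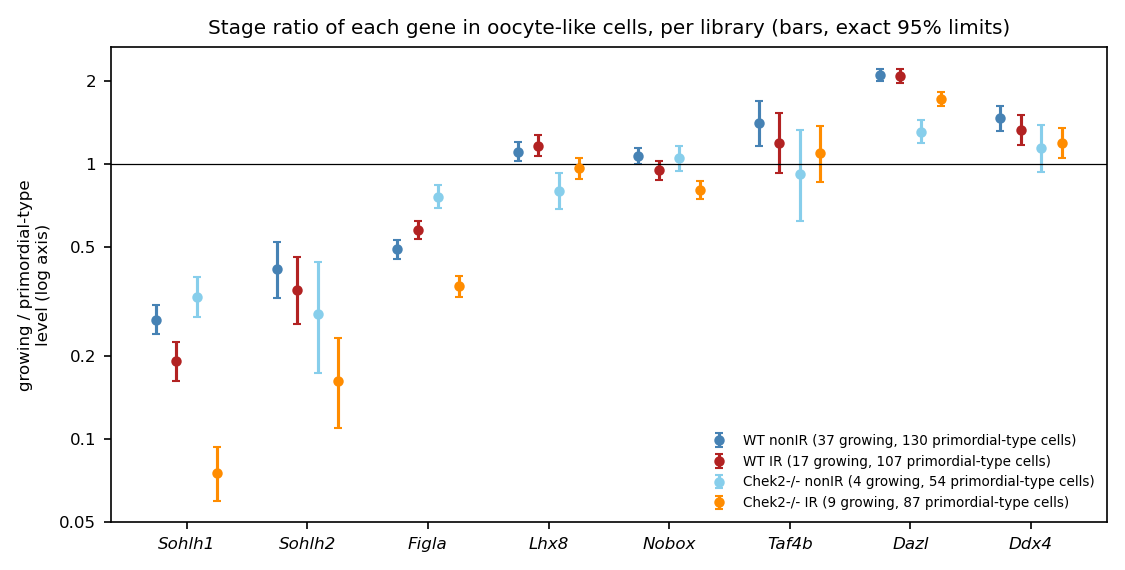
Growing-type over primordial-type level of each gene in each single-cell library (log axis; bars, exact 95% limits for counting error; the line marks 1). Sohlh1, Sohlh2 and Figla lie below 1 and Dazl above 1 in all 4 libraries, and the legend gives the cells behind each point.

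In single cells of WT ovaries, the irradiated over non-irradiated ratio was small when all cells were summed, and within primordial-type oocytes it depended on which clusters were counted. Over all cells it was 0.451 for Sohlh1, 0.433 for Nobox, 0.478 for Lhx8 and 0.634 for Taf4b. Oocyte-like cells supplied 15.6% of the UMIs of the WT nonIR and 7.52% of those of the WT IR library. Within all primordial-type cells it was 0.921 for Sohlh1 (exact 95% limits 0.886 to 0.958), 0.93 for Nobox (0.894 to 0.967) and 0.972 for Lhx8 (0.927 to 1.02). It was 1.05 for Figla (1.02 to 1.09), 1.08 for Dazl (1.04 to 1.12) and 0.837 for Taf4b (0.731 to 0.956). Granulosa markers were 4.30 UMIs per 10000 in the WT nonIR and 1.52 in the WT IR cells of this ratio. Without the clusters of high Foxl2 (82 WT IR and 20 WT nonIR cells) the ratio was 0.705 for Sohlh1 (0.663 to 0.751), 0.712 for Lhx8 (0.661 to 0.768) and 0.768 for Nobox (0.72 to 0.82). Figla turned to 0.939 (0.891 to 0.99) and Dazl to 0.741 (0.696 to 0.789), and Taf4b was at 0.801 (0.639 to 1.01). Thinning to 5000 UMIs left 78 of 107 WT IR and 127 of 130 WT nonIR primordial-type cells, and the ratio turned to 1.06 for Sohlh1, 1.11 for Sohlh2, 1.14 for Lhx8 and 1.46 for Taf4b, with all limits on both sides of 1. No direction is therefore drawn for any of the 8 genes in these cells.

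In growing-type cells of WT ovaries (37 nonIR and 17 IR cells), Sohlh1 had a ratio of 0.653 (0.534 to 0.795), Nobox of 0.824 (0.75 to 0.905), Taf4b of 0.709 (0.533 to 0.939) and Figla of 1.23 (1.12 to 1.37). In growing-type cells of Chek2-/- ovaries, only 4 nonIR and 9 IR cells, Sohlh1 had a ratio of 0.215 (0.162 to 0.283), Figla of 0.457 (0.402 to 0.518), Nobox of 0.762 (0.675 to 0.863) and Dazl of 1.15 (1.04 to 1.28). Limits of the other genes lay on both sides of 1 in each genotype. In Chek2-/- cells, summed over the library, the ratios ran from 1.18 (Sohlh1) to 1.37 (Taf4b), with oocyte-like cells at 7.10% of UMIs without and 9.31% with irradiation. Within Chek2-/- primordial-type cells they ran from 0.876 for Dazl (0.836 to 0.918) to 1.02 for Sohlh2, with Sohlh1 at 0.935 (0.897 to 0.975). Without the clusters of high Foxl2 they ran from 0.959 for Dazl (0.9 to 1.02) to 1.20 for Taf4b, whose limits lay on both sides of 1, with Sohlh1 at 0.987 (0.93 to 1.05) and Lhx8 at 1.14 (1.06 to 1.24). With 1 library per group, a difference between libraries cannot be told apart from a difference between conditions.

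**Figure D5:**
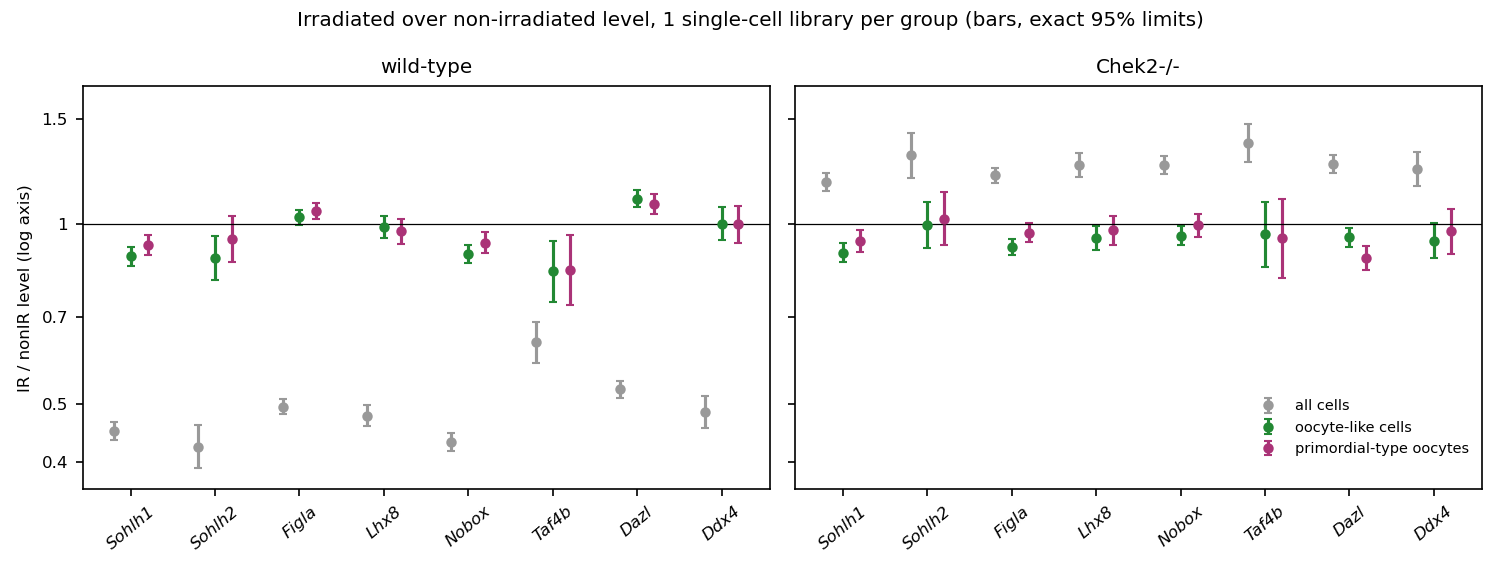
Irradiated over non-irradiated level of each gene in WT (left) and Chek2-/- (right) single-cell libraries (log axis; bars, exact 95% limits for counting error; the line marks 1). Summed over all cells, the WT ratios lie between 0.424 and 0.634 and the Chek2-/- ratios between 1.18 and 1.37, while within the primordial-type class, clusters of high Foxl2 included, all lie between 0.837 and 1.08.

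Among single primordial-type cells the levels of the genes varied widely. In the WT nonIR library Sohlh1 had a 10th percentile of 1.87, a median of 3.59 and a 90th percentile of 5.05 UMIs per 10000, and Figla 3.12, 5.17 and 7.17. In the WT IR library, with shallower cells, Sohlh1 had a 90th percentile of 6.55 and no UMI in 17 of 107 cells, against 5 of 130 cells in the WT nonIR library. Figla had no UMI in 10 of 107 cells and in 0 of 130 cells. The depth of the cells and their granulosa markers (4.30 and 1.52 UMIs per 10000) differed between these libraries, and the part of either in these counts was not tested.

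The bulk libraries held between 17824920 and 32605519 counts, and 3 counts were worth between 0.0931 and 0.168 CPM, far below every one of the 8 genes. Single-cell libraries held between 181053104 and 207463200 UMIs in 9091 to 10345 cells before doublets were removed. Pairs of single-cell libraries shared between 30 and 73 cell barcodes.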

How the data were processed

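Per the labels and methods, Salmon 1.3.0 and Ensembl transcripts gave the bulk values, which the authors deposited as unscaled estimated counts per gene; their genome build was not settled by these sources. The single-cell values are UMI counts from Cell Ranger (mm10), which the authors deposited as matrices of 9488 to 11053 called cells, before the filters on cells given here. Bulk values were rounded to whole numbers, genes under 10 counts in the sum of 24 libraries were dropped, and all groups were fitted by edgeR 4.0.16 (R 4.3.3) with TMM scaling and Benjamini-Hochberg adjustment over 26790 genes. The p-values set each fold change against the spread between these samples, which edgeR estimated over all 4 groups. Cells needed at least 1000 genes, at most 20% mitochondrial and at most 50% ribosomal UMIs, and Scrublet calls (4.02% to 5.47% of cells) were removed. Clusters came from scanpy 1.11.5 (2000 variable genes, 30 components, Leiden resolution 0.5), and oocyte-like cells from 15 components. Classes were named from marker lists, with limits set after the clusters had been seen. A cluster was growing-type where its growing markers exceeded its primordial-type markers by 2 on the log2 scale, intermediate by 1, and primordial-type otherwise. It was low-RNA instead where its median UMIs were under 1/3 of its library's and no marker of its stage was among its leading genes. UMIs were summed per class and library. Named genes were the 8 regulators, the 3 genes most like each, genes of each list past the threshold (all, or the 3 of lowest p where over 5 passed), and Chek2. The genes and lists were chosen with earlier results of these data known. DESeq2 1.42.0, limma-voom (limma 3.58.1), other filters, scalings and clusterings, thinning, and leaving out each library were tried as alternatives. The scripts were tested on simulated data.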

Additional observations from a re-analysis of the deposited data

Results flagged for a closer look

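Among 36 groups of 6 bulk libraries, 6 had 1 library far from the other 5 by Dixon's test, which flags about 1 in 20 groups by chance. Sohlh2 had 1 high WT IR library at 20.7 CPM. In the Chek2-/- nonIR group the library numbered 6 was far below the others for Lhx8 (33.0 CPM), Nobox (108 CPM) and Ddx4 (46.0 CPM). The same library had the lowest mean log2 CPM of the oocyte reference list in its group (6.86), and the library numbered 6 was lowest in the Chek2-/- IR group as well (7.03). The cause was not tested.

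The effect of irradiation differed between the genotypes, by the interaction term of the edgeR fit, for Sohlh1 (0.88 on the log2 scale, adjusted p = 0.0131, 6 of 6 WT IR libraries below all WT nonIR libraries) and for the TFIID gene Taf5 (0.49, adjusted p = 0.0301). Both values are the Chek2-/- effect minus the WT effect.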

How the results depend on the processing

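Over 32 alternative settings Sohlh1 and Nobox stayed past the threshold in WT in 32 each by adjusted p, Lhx8 in 23, and the Sohlh1 interaction in 32, with fold changes of −0.89 to −0.71 for Sohlh1 and −0.54 to −0.44 for Nobox in WT. Leaving out 1 library at a time gave 2 to 3 of the 8 genes past the threshold in WT and 1 to 2 for the interaction. Requiring a 2-fold change as well left 0 of the 8 in WT and 0 for the interaction, 0 TFIID genes in both, and 0 germ-cell RNA regulators in WT. For the interaction, DESeq2 gave 2 of the 8 (Nobox adjusted p = 0.0433), and the reference mean as a covariate gave 3. Without both Chek2-/- libraries numbered 6, chosen after seeing the data, 5 of the 8 passed in WT and 3 for the interaction. For Chek2-/- against WT without irradiation, the covariate gave 2 of the 8 (Taf4b 0.42, adjusted p = 0.0236; Dazl 0.40, adjusted p = 0.0351).

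Replicate numbers were not taken to pair the samples, since not every same-numbered pair correlated above 0.1: nonIR and IR libraries of 1 number correlated at −0.0469 to 0.397 in WT (3 of 6 pairs above 0.1, the same number the best match for 1 of 6) and at 0.0577 to 0.657 in Chek2-/- (5 of 6, best match for 4 of 6). With a replicate block, 3 of the 8 passed in WT and 2 for the interaction (Nobox adjusted p = 0.0366), 2 germ-cell RNA regulators and 1 LIM-homeobox gene passed in WT, and 2 growing-oocyte genes and 3 germ-cell RNA regulators in Chek2-/- against WT.

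Counts on the related lists moved too. Germ-cell RNA regulators in WT numbered 2 by DESeq2, 2 by limma-voom, 3 with the covariate and 6 without both libraries, and 1 passed the interaction by DESeq2 and 1 without both libraries. LIM-homeobox genes in WT numbered 1 by DESeq2, 1 by filterByExpr and 1 with no filter, and 1 passed the interaction by DESeq2 and 1 by limma-voom. In Chek2-/- against WT, growing-oocyte genes numbered 3 by DESeq2, 4 with the covariate, 6 without both libraries and 0 at 2-fold. bHLH partners numbered 0 by limma-voom, with no filter, with the covariate, at 2-fold and without both libraries, TFIID genes 4 with the covariate, 4 without both libraries and 0 at 2-fold, and germ-cell RNA regulators 4 with the covariate and 4 without both libraries. The cause was not tested. Genes past the threshold in Chek2-/- against WT numbered 2507 by DESeq2, 2453 with the covariate and 572 (without WT nonIR replicate 4) to 1803 (without Chek2-/- IR replicate 6) with 1 library left out, beside 1430, and in the interaction 458 by DESeq2, beside 277. In Chek2-/- after irradiation DESeq2 gave 14 and leaving out 1 library 2 to 5, beside 3. At 2-fold the counts were 288 in WT, 1 in Chek2-/-, 167 for the interaction and 211 for the genotypes.

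In single cells, leaving out the primordial-type clusters of high Foxl2, chosen after seeing the data, turned the growing-type over primordial-type ratio of Lhx8 to 0.7606 in WT nonIR cells, with 5 genes below 1 by their limits and 2 above. It turned the irradiated over non-irradiated ratio in WT to 0.9389 for Figla and 0.7406 for Dazl, with 7 genes below 1 and 0 above, and left 0 below and 1 above in Chek2-/-. Thinning to 5000 UMIs turned the irradiated over non-irradiated ratio in WT primordial-type cells to 1.0591 for Sohlh1, 1.4568 for Taf4b, 1.1409 for Lhx8 and 1.114 for Sohlh2, and put Ddx4 at 0.7854, with 78 of 107 WT IR and 127 of 130 WT nonIR cells deep enough. It left 0 genes with limits below 1 and 0 above 1 in WT, and 0 below 1 in Chek2-/-. Thinning lowers the UMIs per gene, gives each cell equal weight and drops shallow cells, and the part of each was not tested. Oocyte-like cells of at least 50000 UMIs, also chosen after seeing the data, kept Sohlh1 at 0.927 and Taf4b at 0.849. Under thinning the growing-type over primordial-type ratio in WT nonIR cells was 0.31 for Sohlh1, 0.115 for Sohlh2, 0.553 for Figla, 0.947 for Nobox and 2.9964 for Taf4b, with 3 genes above 1 by their limits, beside 4.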
